A study of Mus musculus with 4 samples.

Results

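Peaks of long intergenic non-coding RNAs (lincRNAs) were examined in maps of N6-methyladenosine (m6A) from mouse embryonic stem cells. In each of the 4 deposited peak lists, the peaks whose gene carried the transcript class lincRNA were taken from chromosomes 1 to 19, X, Y and MT, without Malat1, Neat1, Meg3, Rian and Mirg. Peaks whose exon blocks shared at least 1 bp were joined across libraries into regions. This gave 879 peaks in 310 regions of 249 genes, out of 46417 peaks, 15487 regions and 9949 genes in all. The groups were 2 Mettl5-/- libraries (knockout 1 and knockout 2) and 2 wild-type libraries (wild type 1 and wild type 2), all of the C57BL/6N strain and labelled as embryonic stem cells. RNA fragments were precipitated with an antibody against m6A. The protocols also describe differentiation, but no sample is labelled as differentiated. The labels do not say whether the knockout libraries came from 1 clone or several, or which libraries were grown apart. P-values therefore measure the spread between these samples only, and part of it may be technical.

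A lincRNA is a long transcript without a known protein product that lies between protein-coding genes. m6A in such transcripts and in mRNAs is placed by the METTL3-METTL14 complex, mostly at an adenosine followed by cytosine within a short consensus, and reader proteins bind it there. METTL5 is a separate m6A methyltransferase whose known substrate is the RNA of the small ribosomal subunit. Known methylated lincRNAs include Xist, which coats the inactive X chromosome, and in stem cells several transcripts of this class are linked to self-renewal.

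Sequence could be shown where a RefSeq promoter window (250 bases before to 50 after a gene's start, build GRCm38.p6) lay inside a lincRNA peak. Of the 249 genes 101 had such a window, and for 8 genes at least 40 of its bases lay in a peak. The stretches of 4 genes whose region had a peak in all 4 libraries are given, because they are sequence inside recurring peaks. The RefSeq span of 5031425E22Rik extends 5′ of its window, to position 23434353, so that stretch lies inside the gene. The stretch of 5330439K02Rik runs from base -235 to base 49 around its RefSeq start. Most of it thus lies before the annotated transcript. The stretch of 2010320M18Rik runs from base -47 to base 49. 5031425E22Rik and 5330439K02Rik lie opposite the coding genes Kmt2e and Letmd1, so the listed strand may not be that of the RNA. Capitals mark pentamers of the m6A consensus on the listed strand: A, G or T, then A or G, then A and C, then A, C or T, which makes 18 pentamers with GGACT as the best known. The lines hold chr8:70776815-70776911 on the plus strand, then chr5:23433287-23433586, chr15:100468318-100468602 and chr1:105990233-105990282 on the minus strand.
2010320M18Rik: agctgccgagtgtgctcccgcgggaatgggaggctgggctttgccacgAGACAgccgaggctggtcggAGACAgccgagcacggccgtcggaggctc
5031425E22Rik: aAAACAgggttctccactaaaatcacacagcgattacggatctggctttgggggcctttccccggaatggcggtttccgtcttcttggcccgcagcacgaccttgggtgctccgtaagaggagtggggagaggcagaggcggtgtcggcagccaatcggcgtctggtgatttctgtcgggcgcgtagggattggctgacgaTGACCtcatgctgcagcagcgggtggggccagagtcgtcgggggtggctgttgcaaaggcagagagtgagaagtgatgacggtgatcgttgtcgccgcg
5330439K02Rik: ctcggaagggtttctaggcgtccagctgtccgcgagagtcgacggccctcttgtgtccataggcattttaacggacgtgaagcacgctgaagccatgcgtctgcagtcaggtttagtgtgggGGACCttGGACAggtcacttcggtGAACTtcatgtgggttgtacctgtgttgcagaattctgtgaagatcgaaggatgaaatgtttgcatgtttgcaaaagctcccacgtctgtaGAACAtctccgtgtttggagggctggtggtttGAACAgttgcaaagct
Gm7160: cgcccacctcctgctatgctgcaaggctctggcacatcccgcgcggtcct
The stretch of 2010320M18Rik held 2 pentamers, both AGACA, in its 97 bases, and 75.9% of the stretches of the same length and place in 27025 windows held at least 1. The 300 bases of 5031425E22Rik also held 2, against a mean of 5.35 over the windows. The 285 bases of 5330439K02Rik held 5, against a mean of 5.05. Among them were GGACC and GGACA, both before the RefSeq start. The 50 bases of Gm7160 held none, where 54.7% of stretches of that length and place held at least 1. GGACT was in none of the 4 stretches. These letters describe the window alone and locate no modified base.

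The nearest microRNA hairpin to a lincRNA peak found in all 4 libraries, on the same strand, was Mir101a. The peak region of E130102H24Rik, a gene on chromosome 4 (chr4:101346620-101346916, minus strand), ended 29 bases from that hairpin. The next such hairpin was Mir196a-1, 590 bases from a peak region of Gm53, and Mir6363 lay inside a peak region of Dubr but on the opposite strand. The E130102H24Rik region had strength percentiles of 58.6 and 49.5 in knockout 1 and 2, and 60.9 and 56.2 in wild type 1 and 2. The strength percentile is the rank of a peak's p-value within its own list, with 100 the strongest. The mature RNAs from the Mir101a hairpin, from RefSeq, are shown with the seed (bases 2 to 8) in capitals to give the product encoded beside the E130102H24Rik peak.
mmu-miR-101a-3p: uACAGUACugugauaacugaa
mmu-miR-101a-5p: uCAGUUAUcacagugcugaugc
The E130102H24Rik peak did not reach into the Mir101a hairpin, and the lists do not measure the microRNA.

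The lists held 12699 and 10821 peaks in knockout 1 and 2, and 11696 and 11201 in wild type 1 and 2. Read depth is unknown, as the deposited lists give no read counts. Mettl5 had a peak in none of the 4 lists, so the lists do not check the genotype labels. Of 9 embryonic stem cell markers 6 had a peak in every list. Of 8 feeder fibroblast markers 1 had a peak in each list, of 5 neural markers 3 and 3 in the knockout lists and 3 and 2 in the wild-type lists, and of 6 endoderm and mesoderm markers 3 and 2 in the knockout lists and 3 and 2 in the wild-type lists.

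The class name held for most genes that could be placed in the RefSeq annotation, with exceptions. Of the 249 genes 132 (53.0%) matched a RefSeq gene at the same place. RefSeq called 113 of these lncRNA, 11 protein-coding, 5 pseudogene and 3 transcribed pseudogene. Among the 11 were Gm32856, Gm46430, 1810058I24Rik, 6330403K07Rik and Tmem250-ps, and the 3 were 4632415L05Rik, Gm4349 and Gm4961. All member peaks were listed in an exon class except 1 of Gm45846 in wild type 1, which was listed as coding sequence.

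Many of the regions were not intergenic. The RefSeq gene matched to a member itself was left out here, also where RefSeq calls it protein-coding. This holds for Gm32856 and Tmem250-ps. It also holds for Gm38399, D930016D06Rik and Gm37494, matched through older symbols to the coding genes Nav1, Thoc2l and Gm33989. The span of another RefSeq protein-coding gene covered 85 of the 310 regions (27.4%). Of these 67 were on the opposite strand, 14 on the same strand and 4 over a gene of unknown strand. A further 49 regions lay within 5 kb of another coding gene and 176 had no other within 5 kb. Bases were shared with a listed peak of another gene in 49 regions (15.8%), of which 48 faced a peak on the opposite strand. Within 1 list, 136 pairs of overlapping opposite-strand peaks involved a lincRNA. In 51 of them (37.5%) both peaks had the same p-value and fold enrichment, against 276 of 1355 such pairs (20.4%) over all genes. For Gm26819 and Med10, a Mediator subunit, both peaks had a fold of 11.2 in knockout 1 and 8.96 in knockout 2. Strand-specific library preparation is named in none of the sources used here, so for the shared places the gene that carried the RNA cannot be told apart. In all, 212 regions were clear of other coding genes and of other genes' peaks and 98 were not. The 212 include regions whose own matched RefSeq gene is protein-coding.

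Peaks over other genes ranked higher than the clear ones in every library. The median strength of peaks in the 98 regions was 44.6 and 54.5 in knockout 1 and 2, and 41.2 and 50.5 in wild type 1 and 2. In the 212 clear regions it was 36.5 and 32.4 in knockout 1 and 2, and 32.0 and 32.7 in wild type 1 and 2. The difference averaged 14.3 ± 6.80 percentile points (SD, n = 4 libraries) and was positive in 4 of 4. Its two-sided exact sign-flip p was 0.125, the smallest that 4 libraries allow, and 0.167 after Benjamini-Hochberg adjustment over 12 sign-flip tests. Regions found in all 4 libraries are counted in each of them, so the 4 differences are not independent. Of the regions themselves, 41 of the 98 regions (41.8%) and 82 of the 212 (38.7%) had a peak in all 4 libraries. In the plot of strength by overlap, peaks of both kinds span nearly the whole scale in every library.

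**Figure D1:**
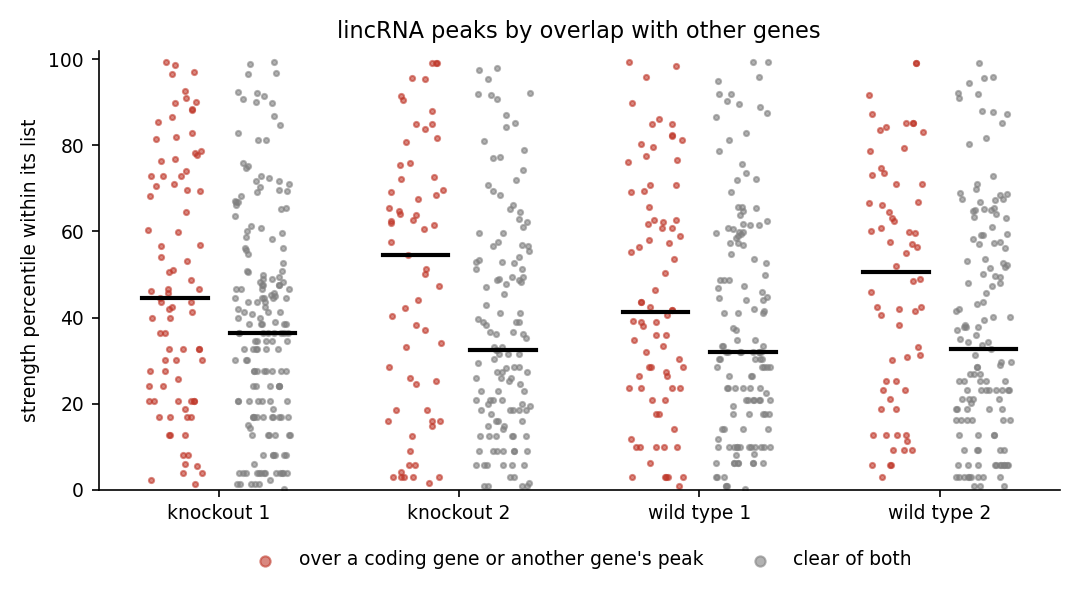
Strength percentile of every lincRNA peak (vertical axis, rank of the p-value within its list, 100 strongest) in the 4 libraries. Peaks over another coding gene or another gene's peak are red and clear peaks grey. Black bars are medians, which lie higher for the red points in all 4 libraries, by 8.10 to 22.2 points.

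Most recurring lincRNA peaks were found in both genotypes. A peak was present in all 4 libraries in 123 of the 310 regions (39.7%, Wilson 95% interval 34.4 to 45.2), beside 42.5% of all 15487 regions. Regions seen in exactly 3, 2 and 1 libraries numbered 47, 47 and 93. The 93 seen once (30.0%) compare with 28.3% of all regions. They were 47 in knockout 1, 7 in knockout 2, 21 in wild type 1 and 18 in wild type 2, and knockout 1 had the longest list. Counted by gene, 112 of 249 (45.0%) had a peak in all 4 libraries, beside 57.1% of all genes, and 67 (26.9%) in 1 library, beside 17% of all genes. Regions of antisense RNA genes were in all 4 libraries in 152 of 373 cases (40.8%), of the class TEC (predicted transcripts that await experimental evidence) in 79 of 195 (40.5%), and of protein-coding genes in 5990 of 14039 (42.7%). The Wilson intervals of the shares of lincRNA and protein-coding regions overlap, and they cover counting error only.

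**Figure D2:**
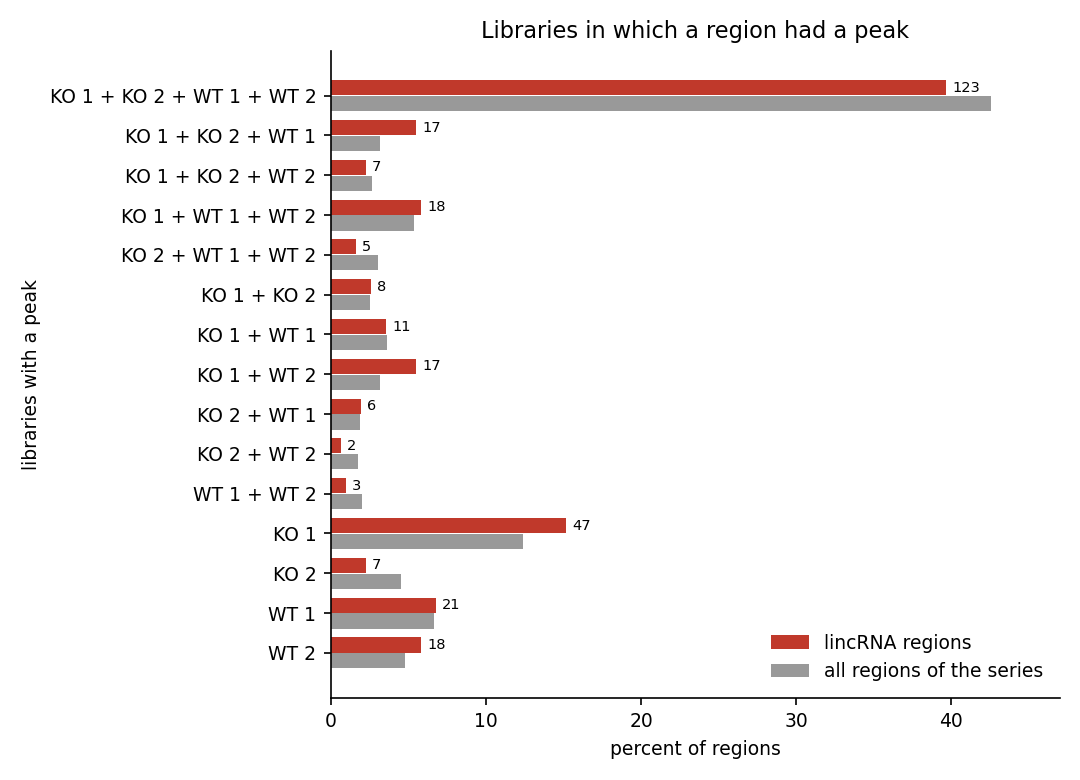
Percent of regions (horizontal axis) with a peak in each combination of libraries, for the 310 lincRNA regions (red, with their number) and all 15487 regions (grey); KO is Mettl5-/- and WT wild type. The bar for all 4 libraries is the longest in both sets, 39.7% and 42.5%.

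The regions in all 4 libraries ranked higher than the rest. Their median mean strength was 47.5. Regions seen in 3, 2 and 1 libraries had median strengths of 23.3, 20.8 and 9.25. Among the regions seen once, 39 of the 47 of knockout 1, 4 of the 7 of knockout 2, 15 of the 21 of wild type 1 and 15 of the 18 of wild type 2 lay below the 25th percentile. An exception was Gm26635 (chr16:17257367-17259489, minus strand), which had a strength of 99.1 and a fold of 289 in knockout 2 and no peak elsewhere. It lay opposite Hic2, a transcriptional repressor, and Tmem191c. The strongest single peak of knockout 1 was Gm28592 at 85.5, where Phlda1, on the opposite strand, had a peak in all 4 lists.

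The strongest recurring region belonged to Gm26582, a predicted gene on chromosome 5 (chr5:92053960-92055244, plus strand), opposite G3bp2, which encodes a stress granule protein. Its strength was 99.5 and 99.1 in knockout 1 and 2, and 99.4 and 99.1 in wild type 1 and 2, and its p-value was too small to be listed with a finite log10 in any of them. Folds here and below are the authors' own ratios for each peak to a background that the lists do not name, and they serve only to describe peaks. They were 609 and 143 in knockout 1 and 2, and 427 and 184 in wild type 1 and 2.

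Gm26735 (chr13:28950213-28951671, plus strand) lay opposite the transcription factor gene Sox4, and Sox4 peaks shared its bases in every list. It ranked at 98.7 and 99.1 in knockout 1 and 2, and at 98.4 and 99.1 in wild type 1 and 2. The Sox4 peaks there had folds of 781 and 446 in knockout 1 and 2, and 542 and 644 in wild type 1 and 2. Those of Gm26735 were smaller in every library, with 410 and 291 in knockout 1 and 2, and 312 and 454 in wild type 1 and 2. By strength the Sox4 peaks ranked at 99.5 and 99.1 in knockout 1 and 2, and at 98.5 and 98.1 in wild type 1 and 2. Both genes thus tied in knockout 2, and Gm26735 ranked higher in wild type 2.

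Norad, listed under its older symbol 2900097C17Rik, was among the strongest clear of any other gene. This RNA is induced by DNA damage and binds Pumilio proteins. Its main region (chr2:156391900-156392979, minus strand) ranked at 98.8 and 97.9 in knockout 1 and 2, and at 99.4 and 99.1 in wild type 1 and 2, with folds of 1130 and 229 in knockout 1 and 2, and 969 and 734 in wild type 1 and 2. Both knockout ranks of this region lay below both wild-type ranks, by 0.313 points or more. In both wild-type lists its p-value had no finite log10. It was thus tied at the top rank, 99.35 in wild type 1 and 99.15 in wild type 2. The tied top rank of knockout 2 was 99.08, so knockout 2 could not have ranked above the wild type. That of knockout 1 was 99.46, and neither knockout rank of this region reached the top rank of its list. The gap alone does not show a difference between genotypes, which was not tested for single regions. A second region (chr2:156390043-156390642) was also present in all 4, at 59.7 and 51.3 in knockout 1 and 2, and 57.3 and 51.5 in wild type 1 and 2. The third (chr2:156391031-156391241), weaker, was present in knockout 2 at 28.2 and wild type 1 at 19.5. At the second and the third the genotypes were not set apart.

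Xist had its strongest region at chrX:103466586-103468921 on the minus strand. It ranked at 99.5 and 97.5 in knockout 1 and 2, and at 99.4 and 96.0 in wild type 1 and 2, with folds of 149 and 159 in knockout 1 and 2, and 117 and 48.9 in wild type 1 and 2. The other regions of Xist shared bases with peaks of Tsix, its antisense RNA. At chrX:103482348-103483217 Xist ranked at 68.2 and 60.6 in knockout 1 and 2, and at 55.3 and 60.1 in wild type 1 and 2. The region at chrX:103481360-103482019 was in knockout 1 at 27.5, in knockout 2 at 2.83 and in wild type 1 at 28.5. At that region the folds of Xist and Tsix were both 12.8 in knockout 1 and both 13.7 in wild type 1 for the strongest pair. Which of the pair carried the signal there cannot be told apart.

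The next strongest recurring regions varied little in rank between libraries, but more in fold. B230354K17Rik (chr17:45434061-45440126, plus strand) ranked at 96.9 and 95.5 in knockout 1 and 2, and at 95.9 and 95.6 in wild type 1 and 2. Its folds were 1070 and 234 in knockout 1 and 2, and 330 and 1440 in wild type 1 and 2. BC002059 (chr17:16972432-16974008, plus strand) ranked at 96.5 and 92.1 in knockout 1 and 2, and at 94.9 and 94.6 in wild type 1 and 2. It had the highest fold of any lincRNA peak, 2050, in knockout 1. Its fold was 485 in knockout 2, and 803 and 1050 in wild type 1 and 2. 4632415L05Rik, a transcribed pseudogene in RefSeq (chr3:19895185-19896449, plus strand), ranked at 92.3 and 91.9 in knockout 1 and 2, and at 92.0 and 92.1 in wild type 1 and 2. For these 3 regions the libraries of both genotypes overlap.

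AC187103.2, 2010320M18Rik and AU020206, all clear of other genes, ranked between 85.3 and 91.4 in the knockout lists and between 87.6 and 91.1 in the wild-type lists. Gm26669, opposite Zfp36l1, which encodes a protein that binds AU-rich mRNA elements, ranked at 91.1 and 83.8 in knockout 1 and 2, and at 89.8 and 87.3 in wild type 1 and 2. 9530027J09Rik, opposite the ribosome biogenesis gene Utp14a, ranked at 90.1 and 90.5 in knockout 1 and 2, and at 86.1 and 85.2 in wild type 1 and 2. Both its knockout ranks lay above both wild-type ranks. AU020206 had the reverse, with 86.8 and 87.0 in knockout 1 and 2 and 87.6 and 87.8 in wild type 1 and 2. Of the 12 strongest, 4 lay opposite a coding gene.

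Over the 123 regions found in all 4 libraries, both knockout ranks lay above both wild-type ranks in 22 (17.9%), beside 16.6% of the 6589 such regions of the series. Both lay below in 14 (11.4%), beside 10.1% of them. These shares are near the background, and ranks of lists of unequal length show no change in level.

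**Figure D3:**
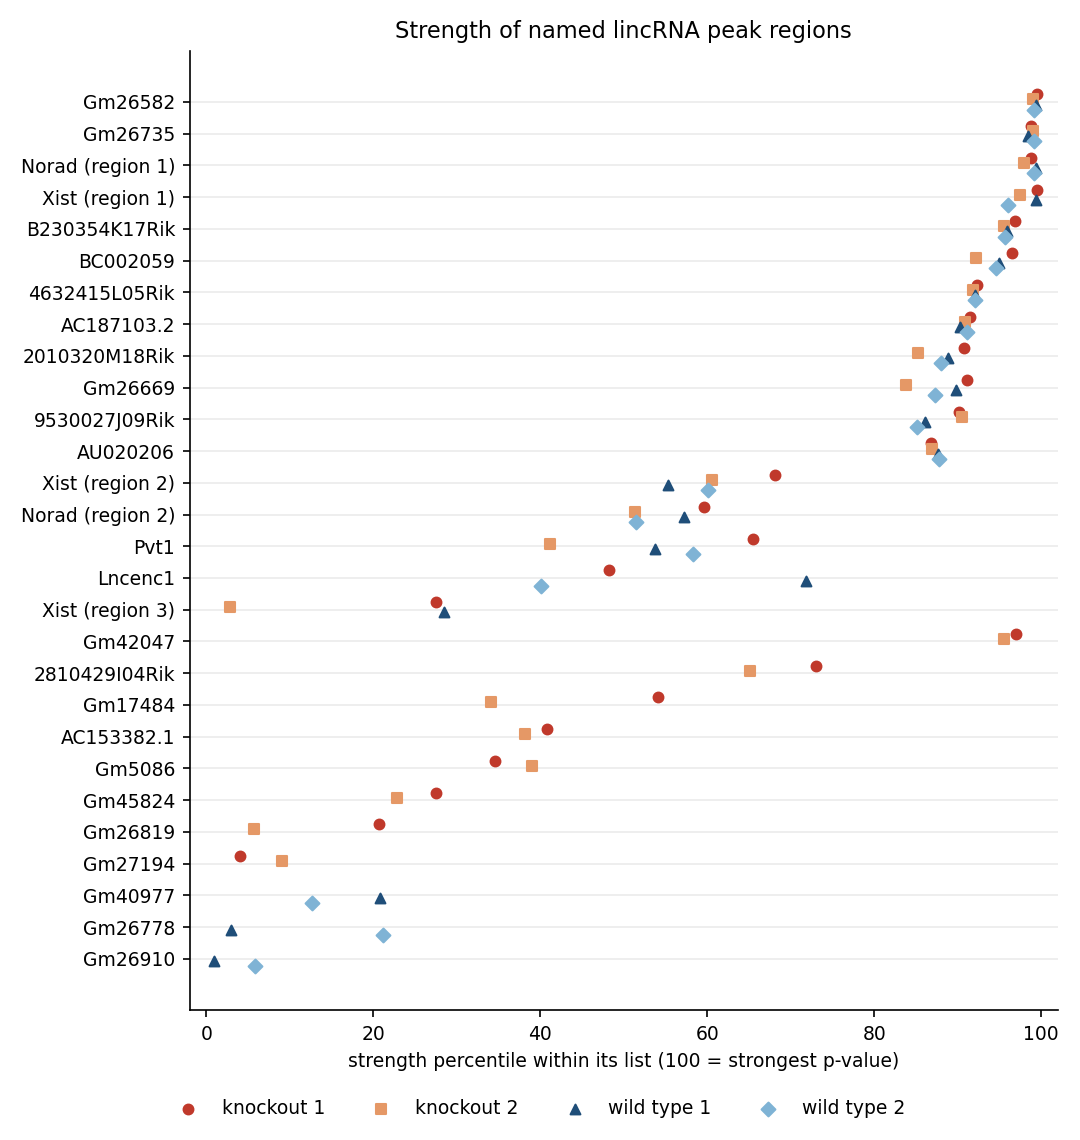
Strength percentile within its list (horizontal axis, 100 strongest) of the named lincRNA regions, 1 point per library with a peak; knockout libraries are red and orange, wild-type libraries dark and light blue. The 12 strongest recurring regions lie above 83, and the regions found in a single genotype, at the bottom, lie below 55 except Gm42047 and 2810429I04Rik.

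Well-studied lincRNAs of the class were few. Pvt1, next to the Myc gene, had 1 region (chr15:62107179-62107597, plus strand) in all 4 libraries, at 65.4 and 41.1 in knockout 1 and 2, and 53.7 and 58.2 in wild type 1 and 2. Firre, Tsix, Tug1, Kcnq1ot1 and Gas5 had peaks that the lists give under other transcript classes. Of 10 listed stem cell lincRNAs with any peak, 4 had one under the class lincRNA. Platr22 (chr1:136725005-136726082, plus strand) ranked at 72.4 and 71.9 in knockout 1 and 2, and at 73.5 and 72.8 in wild type 1 and 2. Platr4 had a peak in knockout 2 at 70.8 and in wild type 2 at 65.4, and Platr27 in knockout 1 alone at 16.8.

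Lncenc1, a transcript enriched in naive embryonic stem cells, had 2 neighbouring regions. That at chr13:97495521-97495996 was in knockout 1 at 48.2, in wild type 1 at 71.9 and in wild type 2 at 40.05. That at chr13:97495015-97495253 was in knockout 2 alone, at 27.4. Counted as a gene, Lncenc1 had a peak in all 4 libraries.

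Among other lincRNAs with a gene name were Mir9-3hg, Dubr, Haglr and Lockd. Mir9-3hg, the host of a neural microRNA, had a region in all 4 libraries at 27.5 and 9.03 in knockout 1 and 2, and 14.01 and 2.89 in wild type 1 and 2. Dubr, named for its place upstream of Dppa2, had 2 regions in all 4 libraries. Its stronger one (chr16:50726921-50727311, minus strand) ranked at 61.3 and 41.1 in knockout 1 and 2, and at 47.4 and 57.6 in wild type 1 and 2. Haglr, in the Hoxd cluster, and Lockd, downstream of Cdkn1b, had 1 peak each, in wild type 2 at 9.25 and in knockout 1 at 3.99.

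Most genes of the class carried only a placeholder name. Predicted genes (Gm names) made up 137 of the 249 genes with 175 regions, of which 67 were in all 4 libraries. Genes named after cDNA clones (Rik names) made up 71, apart from Norad, with 81 regions, 31 of them in all 4. Other names outside the lists of known lincRNAs made up 33 genes with 41 regions, 18 of them in all 4, and the lists held the other 8 genes. The median of the regions' mean strength was 27.3 for Gm, 24.2 for Rik and 22.6 for other names.

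Some genes had several separate peaks. A single region was found for 202 genes, 2 for 35, 3 for 9, 4 for 2 and 5 for 1. Tmem250-ps had the 5, of which 2 were in all 4 libraries, the stronger at 69.6 and 49.0 in knockout 1 and 2 and at 56.8 and 67.0 in wild type 1 and 2. Gm32856 had 4, of which 2 were in all 4 libraries. At its strongest (chr8:129268964-129269533, plus strand) it ranked at 84.8 and 77.3 in knockout 1 and 2, and at 75.7 and 59.1 in wild type 1 and 2, and these did not overlap. Gm4961 had 4 regions and none in all 4.

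By chromosome, 5 held the most lincRNA regions, 32 of its 1050 (3.05%), and 13 the highest share, 27 of 618 (4.37%). Chromosome 4 held the lowest share of those with any, 9 of 1047 (0.860%), and MT and Y held none.

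The number of lincRNA peaks overlapped between genotypes. There were 264 and 192 peaks in knockout 1 and 2, and 218 and 205 in wild type 1 and 2. As a share of its list this was 2.08% (Wilson 95% interval 1.84 to 2.34) and 1.77% (1.54 to 2.04) in knockout 1 and 2, and 1.86% (1.63 to 2.13) and 1.83% (1.60 to 2.10) in wild type 1 and 2. The means were 1.93% ± 0.215 in the knockout and 1.85% ± 0.0238 in the wild type (SD, n = 2 each), a difference of 0.0796 percentage points with a two-sided exact permutation p of 1. It was -0.0727 without knockout 1 and 0.232 without knockout 2, so its direction rests on knockout 1. The wild-type values lay between those of the knockout. The median strength was 39.9 and 36.9 in knockout 1 and 2, and 34.1 and 37.7 in wild type 1 and 2, a difference of 2.49 points with an exact permutation p of 0.667. With 2 libraries against 2 the smallest possible p is 0.333, so none of the 3 measures compared could pass 0.05, and all adjusted values (Benjamini-Hochberg) were 1. A peak list holds no expression level, so fewer cells with a transcript, less RNA per cell and less m6A cannot be told apart.

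Presence followed the genotype in few lincRNA regions. Both knockout libraries and neither wild-type library had a peak in 8 of the 310 regions (2.58%), beside 2.51% of all regions. The reverse, a peak in both wild-type and neither knockout library, was found in 3 (0.968%), beside 2.02% of all regions. By gene there were 7 of 249 (2.81%) in the knockout direction, beside 2.27% of all genes, and 2 (0.803%) in the wild-type direction, beside 1.56% of all genes. The knockout shares are near those of all regions and genes and the wild-type shares are below them, on counts of 3 and 2. Leaving out any 1 of the 4 libraries, so that fewer lists had to agree, gave 15 to 55 knockout and 8 to 24 wild-type regions. Over all regions of the series the same change gave 5.41% to 15.6% in the knockout direction and 5.27% to 9.12% in the wild-type direction. A lincRNA region seen only in the left-out library dropped out of the 310. Such regions numbered 47 in knockout 1, 7 in knockout 2, 21 in wild type 1 and 18 in wild type 2. Shares of the lincRNA regions left were not calculated. The shared part of all lincRNA regions of a pair was 0.578 for the knockout pair, 0.601 for the wild-type pair, and 0.593 to 0.662 for pairs across genotypes. Over all regions it was 0.588 for the knockout pair, 0.657 for the wild-type pair, and 0.615 to 0.646 across genotypes.

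Of the 8 knockout regions the strongest was in Gm42047 (chr8:121834651-121839744, plus strand). Its peak covered 2809 bp of exon and had strengths of 97.0 and 95.5 and folds of 818 and 306 in knockout 1 and 2, with no listed peak in either wild-type library. The region lies in the span of a coding gene on the same strand, Gm42048. A neighbouring region of the same gene (chr8:121840252-121840610) was found at 70.5 and 37.2 in knockout 1 and 2 and at 58.1 in wild type 1, with folds of 4.41 and 1.48 in knockout 1 and 2 and 1.77 in wild type 1. A further one (chr8:121839804-121840043) was in knockout 1 alone, at 53.2. As a gene, Gm42047 is thus not limited to the knockout.

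2810429I04Rik (chr13:3485059-3485958, plus strand) was the strongest clear of any other gene. Its strengths were 73.0 and 65.1 and its folds 119 and 110 in knockout 1 and 2, with no wild-type peak. Gm17484 (chr8:25769258-25769525, plus strand) had strengths of 54.0 and 34.1 in knockout 1 and 2. Peaks of Bag4, a co-chaperone gene on the opposite strand, shared its bases in knockout 2, wild type 1 and wild type 2, so that place had a peak in all 4 lists.

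The remaining knockout regions were weaker. AC153382.1 ranked at 40.8 and 38.2 in knockout 1 and 2, Gm5086 at 34.6 and 39.0, Gm45824 at 27.5 and 22.8, Gm26819, opposite Med10, at 20.7 and 5.68, and Gm27194 at 3.99 and 9.03. The 3 wild-type regions were weak too. Gm40977, a pseudogene in RefSeq, ranked at 20.8 and 12.6 in wild type 1 and 2. Gm26778, opposite Kctd12, which encodes a subunit of the GABA-B receptor, ranked at 2.94 and 21.1. Gm26910 ranked at 0.885 and 5.80. Gm26778 had another region (chr14:102980826-102981335) in all 4 libraries, at 59.9 and 44.0 in knockout 1 and 2, and 46.4 and 59.8 in wild type 1 and 2.

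The 2 strongest regions found in 3 libraries lay opposite coding genes. Gm26751 (chr14:55871358-55872942), opposite Nynrin, ranked at 96.6 and 95.8 in knockout 1 and 2 and at 95.8 in wild type 1, and Nynrin peaks shared its bases in the same 3 lists. Gm26899 (chr2:120533473-120534523) ranked at 92.6 and 91.4 in knockout 1 and 2 and at 91.6 in wild type 2, and in wild type 1 the place was listed under Zfp106, on the opposite strand.

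Within each library, lincRNA peaks ranked lower, covered fewer bases and less often had several exon blocks than the other peaks, in 4 of 4 libraries. Their median strength was 39.9 and 36.9 in knockout 1 and 2, and 34.1 and 37.7 in wild type 1 and 2, against 50.2 to 50.4 for the other peaks. The difference averaged -13.2 ± 2.42 points (SD, n = 4 libraries). Peaks of antisense RNA genes had medians of 39.9 and 39.4 in knockout 1 and 2, and 39.4 and 42.5 in wild type 1 and 2. Those of the class TEC had 37.5 and 33.3 in knockout 1 and 2, and 36.5 and 36.2 in wild type 1 and 2. The lower rank is thus not particular to lincRNAs. Median covered length of lincRNA peaks was 268.5 and 267.5 bp in knockout 1 and 2, and 265.5 and 271 bp in wild type 1 and 2, against 331 to 360 bp for the other peaks. Peaks of more than 1 exon block made up 3.41% to 4.55% of lincRNA peaks and 10.4% to 11.2% of the others. The median fold was 17.2 ± 1.92 for lincRNA peaks and 23.6 ± 3.26 for the others (SD, n = 4 libraries). In the strongest 10% of a list were 4.59% to 7.29% of lincRNA peaks, against 10.1% of the others.

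An opposite-strand peak in the same list overlapped 14.8% and 14.1% of lincRNA peaks in knockout 1 and 2, and 17.9% and 14.1% in wild type 1 and 2, against 5.10% to 5.61% of the other peaks. Each of these 6 differences had the same direction in 4 of 4 libraries. The exact sign-flip p was 0.125 for each, and 0.167 after Benjamini-Hochberg adjustment over the 12 sign-flip tests made. The share of peaks found in all 4 libraries was 63.6% ± 8.91 for lincRNA peaks and 65.3% ± 5.26 for the others. It was lower for lincRNA peaks in 3 of 4 libraries, with an exact sign-flip p of 0.375 (adjusted 0.45). A region found in all 4 libraries is counted in each of them, so for every measure compared within libraries the 4 differences are not independent.

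Strong lincRNA peaks recurred more often than other peaks of the same rank, in 4 of 4 libraries. For this all listed peaks were joined, so that a peak named for another gene counted as presence. Among peaks between the 75th and 100th percentile, 94.6% and 89.7% of lincRNA peaks in knockout 1 and 2, and 93.3% and 100% in wild type 1 and 2, lay in regions found in all 4 libraries. This range held 37 and 29 lincRNA peaks in knockout 1 and 2, and 30 and 25 in wild type 1 and 2. For the other peaks it was 88.0% and 79.4% in knockout 1 and 2, and 82.2% and 83.8% in wild type 1 and 2. The difference averaged 11.1 ± 3.96 percentage points, positive in 4 of 4 libraries, and between the 50th and 75th percentile it averaged 5.86 ± 3.32, also positive in 4 of 4 (SD, n = 4; exact sign-flip p = 0.125 for both, 0.167 adjusted). In the 2 weaker ranges the sign differed between libraries, with means of 3.48 ± 6.85 and 1.70 ± 5.32 (exact sign-flip p = 0.5 and 0.625, adjusted 0.545 and 0.625). A region found in all 4 libraries is counted in each of them. The 4 differences are thus not independent, and neither their common sign nor these p-values measure replication. Knockout 1, with the longest list, had the lowest recurrence below the 25th percentile, 13.3% for lincRNA and 14.3% for other peaks.

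**Figure D4:**
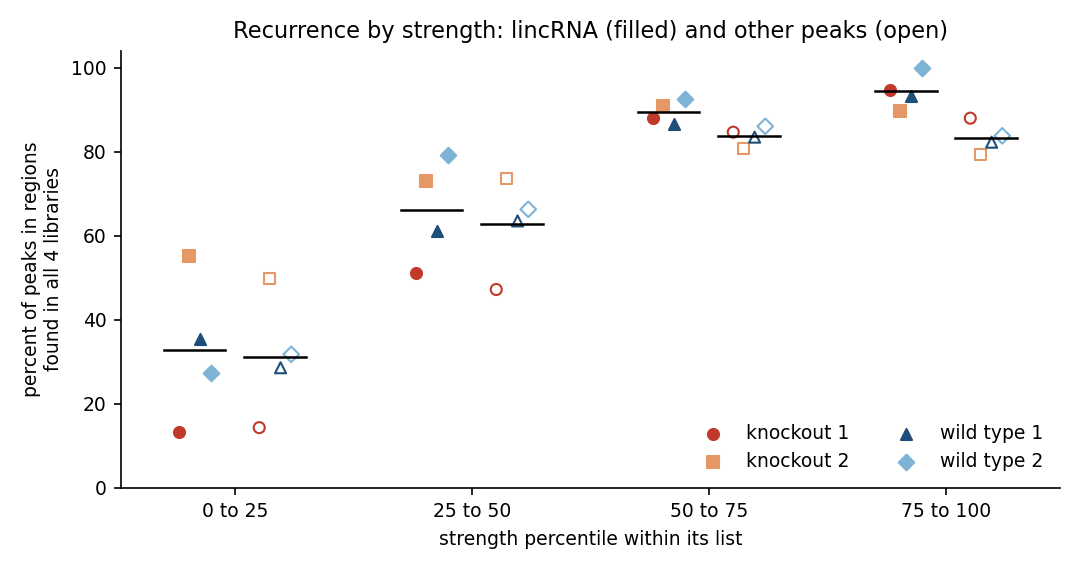
Percent of peaks lying in regions found in all 4 libraries (vertical axis) by range of the strength percentile (horizontal axis, 25 points each), for lincRNA peaks (filled) and other peaks (open); points are libraries and lines their means. In the strongest range the lincRNA points lie between 89.7% and 100%, and the others between 79.4% and 88.0%.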

How the data were processed

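Libraries were grouped by the genotype in the labels. The authors deposited annotated peaks for each library apart, not pooled. Per the file headers, a peak carries a p-value, log10 scores of the raw and adjusted p-value, and a fold, which is a ratio to a background not named. HISAT2, HOMER and mm10 are named in the submitters' processing notes; the peak caller is not given in the sources used here. Members and gene lists were chosen with earlier results of these data known.

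Peaks were ranked by p-value in their own list, as a percentile with ties averaged (strength). Regions were joined by exon blocks sharing at least 1 bp on either strand. Genotypes were compared by exact permutation over libraries, and lincRNA peaks with others by exact sign flips over 4 within-library differences (Python 3.11.15, numpy 2.4.6, scipy 1.17.1). Named were known lincRNAs, the 12 strongest recurring regions, every region of a single genotype and the 5 genes with most regions; other named genes were chosen after their values were seen. Gene names and the class lincRNA came from the deposited lists. RefSeq GRCm38.p6 gave the matched genes, their types and the spans of coding genes. Position along the gene was not compared, since under 80% of genes matched. Region joining was tested on simulated peaks. Alternatives were other joins, thresholds and left-out libraries.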

Additional observations from a re-analysis of the deposited data

How the results depend on the processing

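Counts of knockout and wild-type regions, 8 and 3 over all libraries, were 15 and 22 without knockout 1, 55 and 8 without knockout 2, 25 and 21 without wild type 1, and 15 and 24 without wild type 2, where 3 lists and not 4 had to agree; over all regions the shares without knockout 2 were 15.6% and 5.27%, against 2.51% and 2.02%. Keeping only the stronger 50% of peaks left 46 regions in every library, 2 knockout regions and 3 wild-type regions. Of all regions of the series 48.7%, 2.33% and 1.89% were such. The number of lincRNA regions left with the stronger 50% was not recorded. The counts with the stronger 50% are thus not shares and cannot be set against those percents. With the stronger 50% the knockout minus wild-type difference in median strength was 5.38, and with lists of equal length it was -1.07. Restricting to regions clear of other genes, chosen after seeing the data, left 5 knockout regions and moved the within-library differences to -99.4 bp of covered length and -16.9 points of strength. Against protein-coding peaks alone the difference in peaks of more than 1 exon block was -7.68 percentage points, and ranking by fold gave a strength difference of -7.36, also chosen after seeing the data. The causes were not tested. Over all alternatives 71 values that answer a comparison moved by less than their limit and 17 moved by more; for single named regions these were 91 and 29. No paired analysis was possible because the wild-type labels carry no replicate numbers, and those used here only name the samples. With 2 libraries a genotype, unknown depth and no expression level, a missing peak does not show missing m6A.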
